A study of Mus musculus with 6 samples.

Results

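Granzymes and the other cytotoxic effector genes described here are 10 genes chosen by symbol from the 21718 genes of the deposited count table: Gzma, Gzmb, Gzmk, Prf1, Nkg7, Ifng, Klrd1, Klrk1, Ncr1 and Fasl. All 10 had a row and at least 2 counts in every sample. They were measured in whole prostate tumours of mice by bulk RNA-seq. The first group, called F10-deleted, was 3 tumour samples from recipients of F10fl/fl; LysM-Cre+ marrow. The second, called F10-intact, was 3 tumour samples from recipients of F10fl/fl; LysM-Cre- marrow. The labels do not say that the samples were separate animals, so a tumour below means a tumour sample. Both groups therefore share floxed F10 alleles in the donor marrow (F10 encodes coagulation factor X) and the same engineered host genotype. At the age of 6 weeks every recipient got 900 rad and then the marrow. Castration followed at 8 weeks, and tumours were taken 16 weeks later. LysM-Cre is driven by the lysozyme locus of macrophages, monocytes and granulocytes, so lymphocytes, the main source of the 10 genes, are not its target. How many host leukocytes outlived the irradiation is not given in the sources used here.

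Cytotoxic T cells and natural killer (NK) cells kill a target by releasing granules onto it. Perforin opens the target's membrane and granzymes, which are serine proteases, enter and cut proteins that lead to its death. Death ligands on the cell surface and secreted interferon gamma act beside this route, and inhibitory and activating receptors of the lectin family set when a cell fires. In tumours these genes are commonly read as a measure of how armed the infiltrating lymphocytes are, but tissue RNA mixes cell number with expression per cell: more cells of a type and more RNA per cell cannot be told apart here.

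The totals ranged from 9237308 to 11821588 counts per sample, so that 1 count was worth 0.0844 to 0.105 CPM, the unit of level used here (edgeR's counts scaled for library size with TMM factors). The targeted gene F10 was close to the detection limit, at 0.734, 0.338 and 0.766 CPM in F10-deleted samples 1, 3 and 4 and 0.184, 0.513 and 1.76 CPM in F10-intact samples 1, 3 and 4, so it does not check the labels. Among markers of the other cells a tumour piece can hold, 7 skeletal muscle genes followed the groups, with 6 called by DESeq2 (7 with the replicate block) and 0 by edgeR. They summed to 1685, 673 and 1532 CPM in the F10-deleted samples and 103, 19.3 and 12.4 CPM in the F10-intact samples. The share called among all genes was 3.18% in DESeq2 (3.32% with the replicate block) and 0.0439% in edgeR. The part of muscle in the values below was not tested. F10-intact sample 4 stood apart from the other 5 on the first principal component, which held 49.1% of the variance.

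Gzma and Gzmb were the members with the largest differences, and both had higher values in every F10-deleted tumour than in any F10-intact tumour. The other 8 members overlapped between the groups. In edgeR's quasi-likelihood test over 15963 genes, 7 members passed the filter on low counts (Gzma, Gzmb, Nkg7, Klrd1, Klrk1, Ncr1 and Fasl) and 0 of the 7 were called at an adjusted p under 0.05, where the share called among all genes was 0.0439%. At an unadjusted p under 0.05 there were 2 of 7, Gzma and Gzmb, where the share among all genes was 10.9% (6.15% counting only genes higher in F10-deleted tumours). DESeq2 called 1 member, Gzmb, of the 6 to which it gave an adjusted p, where the share among all genes was 3.18% (2.32% counting only genes higher in F10-deleted tumours), and limma-voom called 0. Groups that do not overlap, with the F10-deleted samples higher, were found for 2 of 7 tested members and for 9.0% of all genes tested. For the opposite order the counts were 0 of 7 and 7.68%. The members were chosen with earlier results of these data known, so an excess over these shares is a description and not a test. The median log2 fold change of the tested members was 0.13, against -0.02 for all genes tested. Gzmk, Prf1 and Ifng fell below the filter, and their fold changes come from the same fit without a filter.

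**Figure D1:**
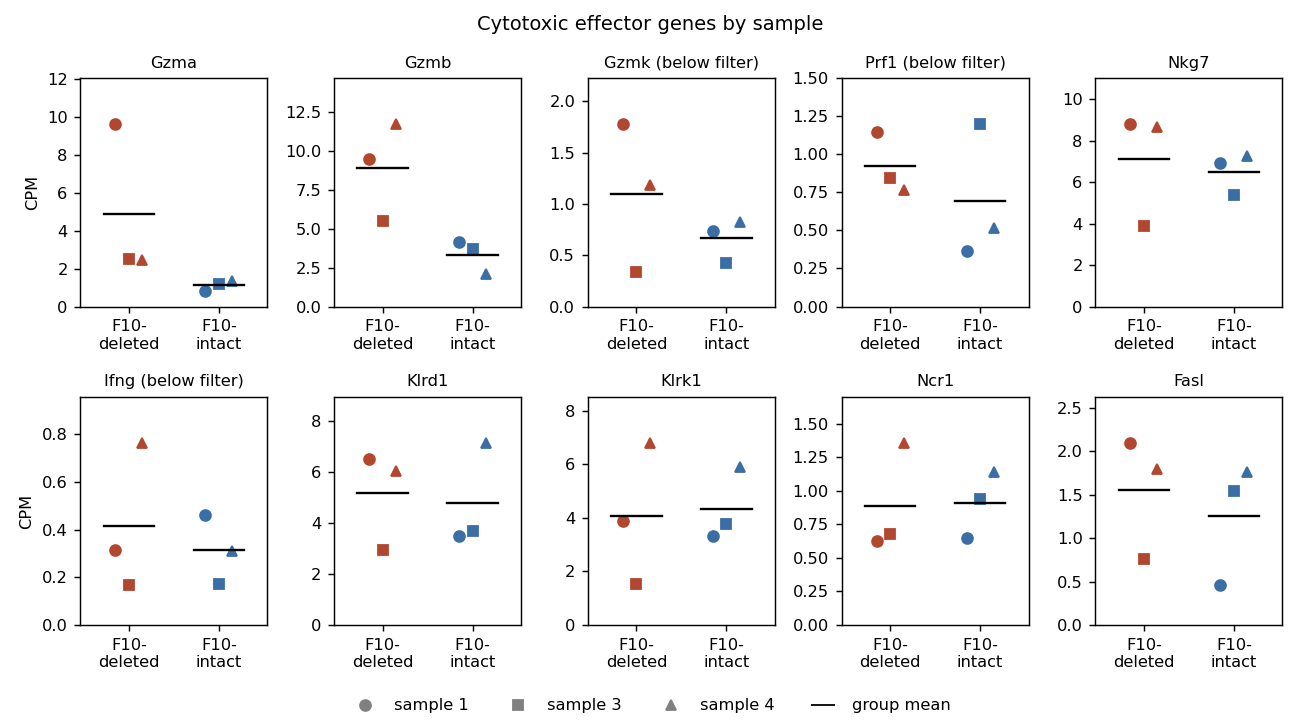
Level of each of the 10 genes in CPM (vertical axes from 0, one scale per gene) in the 3 F10-deleted and 3 F10-intact tumours. Points are samples with their label number as the shape, and lines are group means; only the panels of Gzma and Gzmb show no overlap between the groups.

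Gzma encodes granzyme A, a protease that cuts after basic residues. The gene (ENSMUSG00000023132) lies on chromosome 13, 113093825 to 113100981, minus strand, GRCm38. It had 92, 30 and 29 counts in F10-deleted samples 1, 3 and 4 and 9, 14 and 13 counts in F10-intact samples 1, 3 and 4. In CPM these were 9.64, 2.53 and 2.47 in the F10-deleted samples and 0.829, 1.20 and 1.35 in the F10-intact samples. F10-deleted sample 1 was far above all others, and the other 2 F10-deleted samples lay close together, above the highest F10-intact sample. The means were 4.88 ± 4.12 CPM in the F10-deleted group and 1.12 ± 0.266 CPM in the F10-intact group (SD, n = 3 each). On the log2 scale the groups differed by 2.10 ± 0.63 (SE, 95% interval 0.65 to 3.55), and edgeR's adjusted p was 0.284. Without F10-deleted sample 1 the difference was 1.18, and DESeq2 gave an adjusted p of 0.0547. Counting error alone was smaller than this spread: the summed counts were 151 in the F10-deleted group and 36 in the F10-intact group, a ratio of 4.08 after scaling (95% exact counting interval 2.82 to 6.04).

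Gzmb encodes granzyme B, which cuts after aspartate and activates caspases. The gene (ENSMUSG00000015437) lies on chromosome 14, 56258838 to 56262260, minus strand. It had 90, 65 and 138 counts, or 9.43, 5.49 and 11.7 CPM, in F10-deleted samples 1, 3 and 4. In F10-intact samples 1, 3 and 4 it had 45, 43 and 20 counts, or 4.14, 3.68 and 2.07 CPM. The lowest F10-deleted sample was sample 3 and the highest was sample 4, while sample 4 was the lowest of the F10-intact group. The means were 8.89 ± 3.16 CPM in the F10-deleted group and 3.30 ± 1.09 CPM in the F10-intact group (SD, n = 3 each). Its log2 fold change was 1.42 ± 0.39 (SE, 95% interval 0.52 to 2.33, edgeR's adjusted p = 0.242). DESeq2 called the gene at a log2 fold change of 1.44 (adjusted p = 0.0368). It did not call it once the pairing by number entered as a block (adjusted p = 0.121), and over the alternatives the adjusted p ranged from 0.0368 to 0.566. The summed counts of 293 in the F10-deleted group and 108 in the F10-intact group gave a ratio of 2.64 (95% exact counting interval 2.11 to 3.32).

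Gzmk encodes granzyme K, another protease that cuts after basic residues and the neighbour of Gzma, with 70626 bases between the genes (chromosome 13, 113171608 to 113225908, minus strand). It was rare, with 17, 4 and 14 counts in F10-deleted samples 1, 3 and 4 and 8, 5 and 8 counts in F10-intact tumours. The groups overlapped through F10-deleted sample 3, the lowest of all 6. The means were 1.10 ± 0.726 CPM in the F10-deleted group and 0.664 ± 0.21 CPM in the F10-intact group (SD, n = 3 each). In the unfiltered fit its log2 fold change was 0.73 ± 0.65 (SE, 95% interval -0.73 to 2.20, edgeR's adjusted p = 0.792), and the counting interval of the ratio, 0.917 to 2.93, also held 1. A difference in Gzmk was not detectable at this depth, and without F10-deleted sample 1 the log2 fold change was 0.25.

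The stretches before the starts of these 3 granzyme genes and of Nkg7 are shown because the levels of Gzma and Gzmb did not overlap between the groups, while those of Gzmk and of Nkg7, a granule gene of the same cells, did. Each is the 250 bases before the RefSeq start of the gene on GRCm38.p6, written 5' to 3' on the gene's strand: chr13:113100982-113101231 (minus) for Gzma, chr14:56262335-56262584 (minus) for Gzmb, chr13:113180966-113181215 (minus) for Gzmk and chr7:43436888-43437137 (plus) for Nkg7. Capitals mark matches, on either strand, to any of the motifs T-box AGGTGTGA, RUNX TGTGGT, STAT TTCNNNGAA, AP-1 TGANTCA, CRE TGACGTCA and IRF (GAAA, any 2 bases, GAAA).
Gzma: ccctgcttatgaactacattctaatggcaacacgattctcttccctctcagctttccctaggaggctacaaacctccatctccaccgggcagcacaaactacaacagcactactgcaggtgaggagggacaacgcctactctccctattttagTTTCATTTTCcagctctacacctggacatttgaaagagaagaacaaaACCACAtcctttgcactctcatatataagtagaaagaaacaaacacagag
Gzmb: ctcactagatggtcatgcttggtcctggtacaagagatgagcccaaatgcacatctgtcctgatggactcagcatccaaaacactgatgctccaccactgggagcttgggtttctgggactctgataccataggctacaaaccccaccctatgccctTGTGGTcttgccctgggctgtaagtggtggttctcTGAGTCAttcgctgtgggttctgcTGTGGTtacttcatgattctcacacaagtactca
Gzmk: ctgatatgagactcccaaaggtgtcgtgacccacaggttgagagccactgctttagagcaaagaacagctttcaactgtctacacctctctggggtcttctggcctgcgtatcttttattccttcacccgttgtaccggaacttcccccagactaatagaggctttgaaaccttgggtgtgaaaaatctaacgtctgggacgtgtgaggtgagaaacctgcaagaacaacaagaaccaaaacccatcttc
Nkg7: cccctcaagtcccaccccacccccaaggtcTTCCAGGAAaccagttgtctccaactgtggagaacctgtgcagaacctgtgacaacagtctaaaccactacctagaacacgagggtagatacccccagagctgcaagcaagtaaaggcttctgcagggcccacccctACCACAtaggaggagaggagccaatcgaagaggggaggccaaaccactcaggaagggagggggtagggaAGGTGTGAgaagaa

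The Gzma window held 1 RUNX match, 50 to 45 bases before the start, and 1 IRF match, 97 to 88 bases before it. The Gzmb window held 2 RUNX matches, 93 to 88 and 34 to 29 bases before the start, with an AP-1 match between them. The Gzmk window held 0 matches. It lies inside the annotated span of the gene (113171608 to 113225908, minus strand), whose start differs from the RefSeq start. The bases before the annotated start of Gzmk were not searched. The Nkg7 window held 1 STAT, 1 RUNX and 1 T-box match, the last 14 to 7 bases before the RefSeq start. The annotated span of Nkg7 begins earlier, at 43437073, so the end of its window, with the T-box match, lies inside that span. For Gzmb the annotated span ends at 56262260, short of its window, so the annotated and RefSeq starts differ there too. All distances given here count from the RefSeq starts. None of the marked matches overlapped another. Among 32817 such windows of RefSeq genes, 14% held the RUNX letters, 2.97% the IRF, 6.75% the AP-1, 7.01% the STAT, 1.12% the T-box and 1.55% the CRE letters. RefSeq windows were at hand for 9 of the 10 members, and of the others Klrk1, Ncr1 and Prf1 held RUNX letters and Ifng a STAT match. A match is a description of the letters and not of a bound factor.

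**Figure D2:**
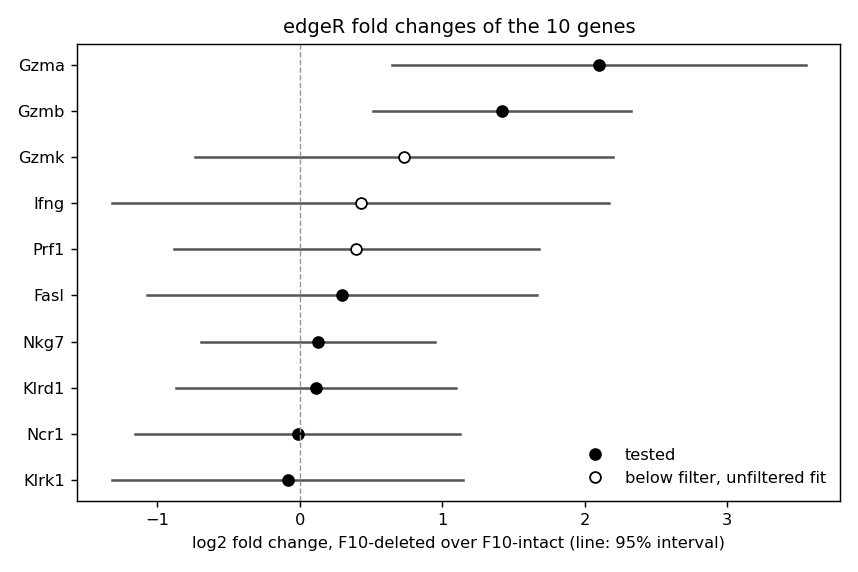
The edgeR log2 fold change of each gene, F10-deleted over F10-intact, on the horizontal axis with its 95% interval as a line. Filled points are the 7 tested genes and open points the 3 below the filter; only the intervals of Gzma (0.65 to 3.55) and Gzmb (0.52 to 2.33) lie above 0, and neither passed after adjustment over all genes.

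Among the 10 genes, the granule genes other than granzymes, Prf1 and Nkg7, did not separate the groups. Prf1, which encodes perforin (chromosome 10, 61297833 to 61304680, plus strand), had 11, 10 and 9 counts in F10-deleted samples 1, 3 and 4 and 4, 14 and 5 counts in F10-intact samples 1, 3 and 4. The F10-deleted samples were nearly level and the F10-intact samples spread on both sides of them. The log2 fold change was 0.40 ± 0.57 (SE, 95% interval -0.88 to 1.68, edgeR's adjusted p in the unfiltered fit = 0.89), at means of 0.921 ± 0.205 CPM in the F10-deleted group and 0.695 ± 0.442 CPM in the F10-intact group (SD, n = 3 each). Leaving out F10-intact sample 1 gave 0.099 and leaving out F10-intact sample 3 gave 1.04. Nkg7, a granule membrane protein needed for full degranulation (chromosome 7, 43437073 to 43438249, plus strand), had 8.80, 3.88 and 8.68 CPM in the F10-deleted samples and 6.91, 5.39 and 7.25 CPM in the F10-intact samples. The lowest and the highest value both belonged to F10-deleted tumours. Its log2 fold change was 0.13 ± 0.36 (SE, 95% interval -0.70 to 0.95, edgeR's adjusted p = 0.936), and leaving out F10-deleted sample 1 gave -0.01 and leaving out sample 4 gave -0.04.

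The receptors of the group showed the smallest differences. Klrd1 encodes CD94, which pairs with NKG2 chains to read class I-like molecules, and lies on chromosome 6, 129591782 to 129598775, plus strand. It had 6.50, 2.95 and 6.04 CPM in F10-deleted samples 1, 3 and 4 and 3.50, 3.68 and 7.14 CPM in F10-intact samples 1, 3 and 4. Both extremes, F10-deleted sample 3 and F10-intact sample 4, were opposite to the difference seen for granzymes. Its difference on the log2 scale was 0.12 ± 0.42 (SE, 95% interval -0.87 to 1.10, edgeR's adjusted p = 0.954), with the opposite sign in 4 of the 6 fits that left out 1 sample.

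Klrk1 encodes NKG2D, an activating receptor for stress ligands, and lies 11547 bases beyond Klrd1 (chromosome 6, 129610323 to 129623864, minus strand). It had 3.88, 1.52 and 6.81 CPM in the F10-deleted samples and 3.32, 3.76 and 5.90 CPM in the F10-intact samples. The F10-deleted group held both the lowest and the highest sample, and the log2 fold change was -0.08 ± 0.53 (SE, 95% interval -1.31 to 1.15, edgeR's adjusted p = 0.975). Leaving out F10-deleted sample 3 gave 0.35, and leaving out F10-intact sample 4 gave 0.20. Ncr1 encodes NKp46, an activating receptor that marks NK cells (chromosome 7, 4337724 to 4345164, plus strand). It had 6, 8 and 16 counts in the F10-deleted samples and 7, 11 and 11 counts in F10-intact tumours. Its difference on the log2 scale was -0.02 ± 0.49 (SE, 95% interval -1.16 to 1.13, edgeR's adjusted p = 0.996), and its sign changed in 5 of the alternatives. These intervals admit a difference of about a doubling in either direction, so they do not show that receptor levels were alike.

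Fasl and Ifng are the death ligand and the cytokine of the group. Fasl, which triggers apoptosis through Fas (chromosome 1, 161780689 to 161788495, minus strand), had 20, 9 and 21 counts in F10-deleted samples 1, 3 and 4 and 5, 18 and 17 counts in F10-intact samples 1, 3 and 4. Each group had 2 high samples and 1 low one. Its log2 fold change was 0.30 ± 0.59 (SE, 95% interval -1.07 to 1.67, edgeR's adjusted p = 0.907). Leaving out F10-intact sample 1 gave -0.07. Ifng, interferon gamma (chromosome 10, 118441046 to 118445892, plus strand), had 3, 2 and 9 counts in the F10-deleted samples and 5, 2 and 3 counts in F10-intact tumours. Its annotation shares 336 exon bases with the gene model Gm49751 on the same strand. The summed counts of 14 in the F10-deleted group and 10 in the F10-intact group gave a ratio of 1.36 after scaling with a 95% exact counting interval of 0.562 to 3.42, so a difference was not detectable at this depth. In the unfiltered fit the log2 fold change was 0.43 ± 0.77 (SE, edgeR's adjusted p = 0.92), and -0.38 without F10-deleted sample 4.

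Per length, as CPM divided by kilobases of annotated exon, Nkg7 had the highest level, at 7.79 ± 3.07 in the F10-deleted group and 7.13 ± 1.08 in the F10-intact group (SD, n = 3 each, as for all levels per length). In the F10-deleted group Gzmb at 6.19 ± 2.20, Gzma at 4.85 ± 4.10 and Klrd1 at 4.03 ± 1.5 followed, and no neighbours among these 4 differed beyond their spread. In the F10-intact group the order differed: Klrd1 came next at 3.73 ± 1.60, then Gzmb at 2.30 ± 0.758 and Gzma at 1.12 ± 0.265. There the steps from Nkg7 to Klrd1 and from Gzmb to Gzma exceeded the summed SDs and the step from Klrd1 to Gzmb did not. The other 6 members were under 1 in both groups, and in the F10-deleted group the step down to them from Klrd1 exceeded the summed SDs. In the F10-deleted group they ran from 0.799 ± 0.361 for Fasl and 0.795 ± 0.523 for Gzmk through Ncr1, Klrk1 and Prf1 to 0.322 ± 0.24 for Ifng, with no neighbours apart beyond their spread. The exons of Klrk1 span 7183 bases in all transcripts together, which lowers its level per length.

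The make-up of the cytotoxic counts kept the groups apart, while their sum did not. The 10 genes summed to 44.2, 19.2 and 41.6 CPM in F10-deleted samples 1, 3 and 4 and to 21.4, 22.0 and 28.3 CPM in F10-intact samples 1, 3 and 4. F10-deleted sample 3 was the lowest of all 6 and the groups overlapped, with means of 35.0 ± 13.7 CPM in the F10-deleted group and 23.9 ± 3.82 CPM in the F10-intact group (SD, n = 3 each). Of the summed counts, Gzma and Gzmb together made up 43.1% (95% Wilson interval 38.5 to 47.9), 41.9% (35.6 to 48.4) and 34.2% (30.1 to 38.5) in the F10-deleted samples. In the F10-intact samples they made up 23.3% (18.3 to 29.1), 22.2% (17.5 to 27.6) and 12.1% (8.74 to 16.5). The 3 F10-deleted samples were all above the 3 F10-intact samples, and F10-deleted sample 3, which had the fewest cytotoxic counts, had almost the same granzyme share as sample 1. The difference of the means was 20.5 percentage points, from 17.0 to 23.3 with 1 sample left out. This pair was singled out after the values were seen, so the share is a description with no test.

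**Figure D3:**
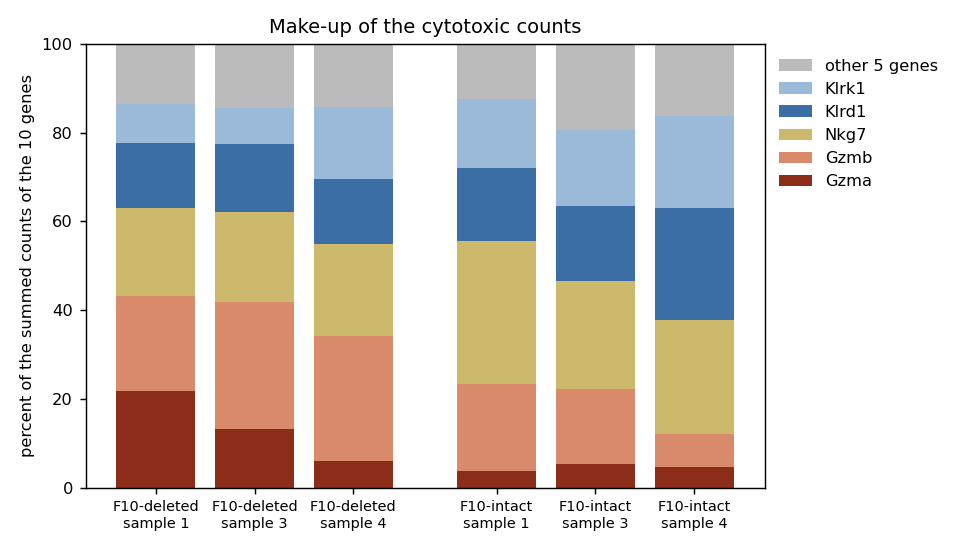
Percent of the summed counts of the 10 genes taken in each tumour by Gzma, Gzmb, Nkg7, Klrd1, Klrk1 and the other 5 genes together, F10-deleted samples on the left and F10-intact samples on the right. Gzma and Gzmb (the 2 lowest blocks) take 34.2% to 43.1% in the F10-deleted samples and 12.1% to 23.3% in the F10-intact samples.

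Relative to the pan-leukocyte gene Ptprc (CD45), Gzmb stood at 21.3%, 14.1% and 23.3% of the Ptprc CPM in F10-deleted samples 1, 3 and 4 and at 9.87%, 6.43% and 3.79% in F10-intact samples 1, 3 and 4. Gzma stood at 21.8%, 6.49% and 4.89% in the F10-deleted samples and at 1.97%, 2.09% and 2.46% in the F10-intact samples. Both ratios kept the groups apart, while Ptprc itself overlapped, at 44.6 ± 5.76 CPM in the F10-deleted group and 51.3 ± 8.15 CPM in the F10-intact group (SD, n = 3 each). Gzma and Gzmb were singled out because their levels did not overlap, so their ratios to other genes are descriptions and add no support. Set against Nkg7, which shares their cells, Gzmb was at 1.07, 1.41 and 1.35 times its CPM in the F10-deleted samples and 0.60, 0.683 and 0.286 times in the F10-intact samples. Set against Prf1 the Gzmb ratio overlapped, at 9.99 ± 4.67 in the F10-deleted group and 6.12 ± 4.51 in the F10-intact group (SD, n = 3 each). The Gzma ratio to Prf1 did not overlap, at 4.86 ± 3.03 in the F10-deleted group and 1.95 ± 0.841 in the F10-intact group (SD, n = 3 each).

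T cell markers overlapped between the groups in sum. Of 18 genes, all tested, 8 were above 0, their median was -0.02 on the log2 scale, and 0 passed in edgeR, DESeq2 or limma-voom, with 0 at an unadjusted p under 0.05. They summed to 169.6, 87.5 and 143.8 CPM in F10-deleted samples 1, 3 and 4 and to 131, 126 and 129.7 CPM in F10-intact samples 1, 3 and 4. F10-deleted sample 3 was the lowest for these markers, as it was for the cytotoxic genes Gzmk, Nkg7, Klrd1 and Klrk1. For Ifng it had 2 counts, as did F10-intact sample 3. The F10-intact samples were nearly level in the sum of the T cell markers. Without F10-deleted sample 3 the median of the list was 0.24. Cd8a, the co-receptor of cytotoxic T cells, had 22.1, 6.08 and 17.1 CPM in the F10-deleted samples and 9.95, 9.07 and 15.5 CPM in the F10-intact samples (log2 fold change 0.39 ± 0.46 SE, edgeR's adjusted p = 0.821). Cd4, the co-receptor of helper T cells, had 5.03, 3.21 and 4.68 CPM in the F10-deleted samples, all below the 5.25, 5.56 and 5.59 CPM of the F10-intact samples (log2 fold change -0.35 ± 0.28 SE, edgeR's adjusted p = 0.723). It was the only 1 of the 18 without overlap, where 7.68% of all genes tested had this order.

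Of the 12 NK cell markers, 11 were tested, 5 were above 0 and the median was -0.02 on the log2 scale. Without the replicate block 0 passed in edgeR, DESeq2 or limma-voom. At an unadjusted p under 0.05 in edgeR there were 2, where the share among all genes was 10.9%. The list shares Gzma, Prf1 and Ncr1 with the 10 genes, and those 2 were Gzma and Itga2, an integrin that epithelium also makes and that took 91.1, 140.0 and 110.0 CPM in the F10-deleted samples and 63.0, 91.0 and 35.4 CPM in the F10-intact samples. With the replicate block DESeq2 called Itga2 (adjusted p = 0.0167). Klrb1c, the NK1.1 antigen, had 0.314, 1.60 and 1.62 CPM in the F10-deleted samples and 1.93, 1.63 and 1.55 CPM in the F10-intact samples. Eomes, a regulator of NK and memory T cells, had 0.524, 1.01 and 1.36 CPM in the F10-deleted samples and 1.01, 0.513 and 2.17 CPM in the F10-intact samples. The groups overlapped for both.

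Other cell types were read through their own lists. Of 7 tested mast cell markers 1 was above 0, the median being -0.56 on the log2 scale, with Mcpt4, a mast cell chymase, at 5.55, 1.35 and 2.30 CPM in the F10-deleted samples and 8.20, 5.73 and 1.04 CPM in the F10-intact samples. That 1 was Kit, a growth factor receptor also made by other cells (log2 fold change 0.70 ± 0.22 SE, edgeR's adjusted p = 0.311). The plasmacytoid dendritic cell list had a median of -0.16. Its members called by DESeq2, Cox6a2, Klk1 and Ly6d, are also genes of muscle, gland and epithelium. The gamma delta T cell list had 3 of 6 tested genes above 0 and a median of 0.05, the B and plasma cell list 3 of 7 and -0.23, the macrophage and monocyte list 4 of 12 and -0.13, the neutrophil list 0 of 5 and -0.71, and the epithelial list 4 of 6 and 0.14. In these 7 lists 0 genes passed in edgeR or limma-voom, and DESeq2 called 3, the plasmacytoid list's Cox6a2 and Ly6d as higher and Klk1 as lower. With the replicate block DESeq2 called 6, adding Krt5 and Krt14, keratins of basal epithelium, and Sdc1, a syndecan of plasma cells and epithelium, all with higher values (adjusted p = 9e-06, 5.71e-05 and 0.0435). Among all genes the share called by DESeq2 was 3.18%, and 3.32% with the replicate block. The edgeR test gave 8 of the 50 tested genes (16%) an unadjusted p under 0.05, where the share among all genes was 10.9%.

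Of the other genes of the pathway, 9 lists held 121 genes, of which 117 had a row and 96 were tested. Of these 96, 0 passed in edgeR and limma-voom, 11 (11.5%) had an unadjusted p under 0.05 in edgeR, near the 10.9% of all genes, and 9 (9.38%) of these were higher, against 6.15% of all genes. DESeq2 called 2, Tnfsf10 and Bhlhe40, where its share among all genes was 3.18%. With the replicate block it called 3, adding Hopx, where its share among all genes was 3.32%. The groups did not overlap for 10 of the 96 with F10-deleted higher and for 4 with F10-deleted lower. Among all genes tested these shares were 9.0% and 7.68%, and the pathway genes named below as not overlapping are among those counted here. A total of 64 (66.7%) were above 0, against 47.3% of all genes, and the median of the 96 was 0.15 on the log2 scale. Of these 64, 22 came from the 23 tested interferon gamma receptor and target genes, which vary together. The 64 are therefore not separate pieces of support, and the lists were chosen with earlier results of these data known.

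Among the other granzymes, Gzmd, Gzme, Gzmf and Gzmg had 0 counts in every sample, where a count of 0 allows up to 0.253 to 0.314 CPM per sample. These 4 are near-identical copies of each other, and reads shared between copies may not have been counted. Gzmc and Gzmm, the 2 tested, had log2 fold changes of 0.48 ± 0.52 and -0.74 ± 0.55 (SE, edgeR's adjusted p = 0.801 and 0.688). Gzmm, the granzyme of innate lymphocytes, had 1.15, 0.591 and 1.02 CPM in the F10-deleted samples and 2.67, 1.11 and 0.828 CPM in the F10-intact samples, and the groups overlapped.

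The genes that load and release granules had 8 of 12 above 0, with a median of 0.07 on the log2 scale. Stx11, a syntaxin needed for granule fusion, had 8.49, 10.9 and 7.83 CPM in the F10-deleted samples and 4.79, 5.31 and 4.14 CPM in the F10-intact samples, with no overlap (log2 fold change 0.93 ± 0.25 SE, edgeR's adjusted p = 0.242). Lamp1, a lysosomal and granule membrane protein of all cells, was at -0.24 ± 0.15 (SE, edgeR's adjusted p = 0.617), with every F10-deleted sample below every F10-intact sample. The list of serpins named for granzyme and perforin inhibitors had 4 of 5 tested genes above 0 and a median of 0.40. Its tested genes were Serpinb9, Serpinb6b, Serpina3g, Serpinb6a and Serpinc1, and the list name does not show that each inhibits a granzyme. Serpinb9, the inhibitor of granzyme B, had 43.8, 50.2 and 51.3 CPM in the F10-deleted samples and 36.6, 42.8 and 34.4 CPM in the F10-intact samples, with every F10-deleted sample above every F10-intact sample (log2 fold change 0.35 ± 0.15 SE, edgeR's adjusted p = 0.44). Serpinb6a, a broadly made serpin, was at 0.40 ± 0.17 (SE, edgeR's adjusted p = 0.445).

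Death ligands and their receptors had 7 of 12 above 0 and a median of 0.08. Tnfsf10, the ligand TRAIL, had 153, 192 and 189 CPM in the F10-deleted samples and 115, 139 and 107 CPM in the F10-intact samples (log2 fold change 0.56 ± 0.15 SE, edgeR's adjusted p = 0.242). DESeq2 called it with and without the replicate block (adjusted p = 0.0329 and 0.0459). Fas, the receptor of Fasl, had 18.2, 19.9 and 22.2 CPM in the F10-deleted samples, all below the 22.4, 25.6 and 27.5 CPM of the F10-intact samples (log2 fold change -0.32 ± 0.16 SE, edgeR's adjusted p = 0.528). Tnf, the inflammatory cytokine of macrophages and T cells, was at -0.55 ± 0.25 (SE, edgeR's adjusted p = 0.485).

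Lectin-type and related receptors with their adaptors had 7 of 16 tested genes above 0 and a median of -0.14. Klrc1, the inhibitory NKG2A chain that pairs with Klrd1, had 2.20, 1.77 and 1.53 CPM in the F10-deleted samples and 1.29, 1.11 and 0.932 CPM in the F10-intact samples, which did not overlap (log2 fold change 0.71 ± 0.37 SE, edgeR's adjusted p = 0.539). Cd226, an activating receptor, did not overlap either and was at 0.63 ± 0.32 (SE, edgeR's adjusted p = 0.534). Hcst, the adaptor that Klrk1 signals through, had 4.61, 2.03 and 2.64 CPM in the F10-deleted samples and 3.87, 3.59 and 5.38 CPM in the F10-intact samples. The Klra genes are close copies of each other, so reads between them are uncertain: Klra8 was at -1.14 ± 0.64 and Klra7 at 0.89 ± 0.51 (SE, edgeR's adjusted p = 0.585 and 0.589).

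The ligands of these receptors had 5 of 6 tested genes above 0 and a median of 0.14. H60c, a ligand of Klrk1, had 6.18, 11.1 and 11.9 CPM in the F10-deleted samples and 3.68, 4.88 and 1.24 CPM in the F10-intact samples (log2 fold change 1.56 ± 0.49 SE, edgeR's adjusted p = 0.305). H2-T23, the Qa-1 molecule read by Klrd1 and Klrc1, was at 0.04 ± 0.17 (SE, edgeR's adjusted p = 0.961). Regulators of the cytotoxic lineage had 5 of 11 above 0 and a median of -0.13. Bhlhe40, a stress-responsive repressor made by many cell types, had 123, 140.0 and 134 CPM in the F10-deleted samples and 66.8, 91.4 and 55.5 CPM in the F10-intact samples (log2 fold change 0.89 ± 0.19 SE, edgeR's adjusted p = 0.144, DESeq2 adjusted p = 0.00287). Id2 was at -0.45 ± 0.15 and Hopx at -0.98 ± 0.33 (SE, edgeR's adjusted p = 0.318 and 0.333), each with every F10-deleted sample below every F10-intact sample. With the replicate block DESeq2 called Hopx (adjusted p = 0.0252). Both genes are also made outside lymphocytes. Tbx21, the T-bet factor of cytotoxic cells, was at 0.51 ± 0.47 (SE, edgeR's adjusted p = 0.754). Of the activating cytokines and receptors, 5 of 9 were above 0 at a median of 0.15. Il18, a cytokine that induces interferon gamma, had 10.9, 16.0 and 11.7 CPM in the F10-deleted samples and 7.09, 9.50 and 6.52 CPM in the F10-intact samples (log2 fold change 0.74 ± 0.26 SE, edgeR's adjusted p = 0.346). Il15, next by p, went the other way at -0.38 ± 0.26 (SE, edgeR's adjusted p = 0.66), and its groups overlapped.

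The interferon gamma receptor and target genes had 22 of 23 above 0, their median being 0.38 on the log2 scale, with 0 passing in edgeR, DESeq2 or limma-voom and 2 at an unadjusted p under 0.05. Target genes share their inducers and vary together, so the 22 are not separate pieces of support. Set against the mean of the F10-intact group, the average log2 level of the list was 0.387, -0.16 and 0.807 in the F10-deleted tumours numbered 1, 3 and 4. It was 0.00361, 0.0992 and -0.103 in the F10-intact tumours numbered 1, 3 and 4. F10-deleted sample 3 was the lowest of all 6 and sample 4 the highest, so the groups overlapped. Without F10-deleted sample 4 the median was 0.11, and without sample 3 it was 0.62. Cxcl10, a chemokine that draws T and NK cells, had 24.0, 13.4 and 62.1 CPM in the F10-deleted samples and 14.4, 17.8 and 15.7 CPM in the F10-intact samples (log2 fold change 1.06 ± 0.51 SE, edgeR's adjusted p = 0.526). Gbp5, a guanylate-binding protein of host defence, had 6.18, 5.07 and 10.9 CPM in the F10-deleted samples and 4.60, 3.17 and 4.04 CPM in the F10-intact samples, with no overlap (log2 fold change 0.91 ± 0.36 SE, edgeR's adjusted p = 0.414). Gbp2 was at 0.64 ± 0.28 and Cxcl11 at 1.38 ± 0.66 (SE, edgeR's adjusted p = 0.458 and 0.51).

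**Figure D4:**
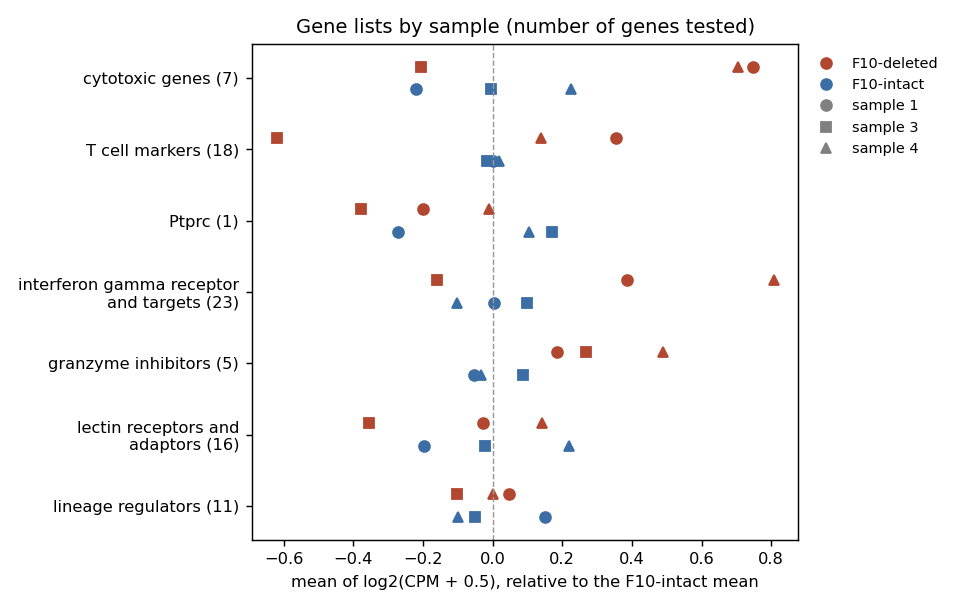
Mean of log2(CPM + 0.5) over the tested genes of each list, relative to the F10-intact mean (horizontal axis, log2 units), with F10-deleted samples above F10-intact samples in each row and the label number as the shape. The cytotoxic row holds the 7 members that passed the filter. F10-deleted sample 3 lies at -0.206 for them, -0.621 for T cell markers and -0.16 for interferon gamma genes. In the row named granzyme inhibitors, which holds the tested genes of the serpin list, the F10-deleted samples all lie above the F10-intact samples.

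The 8 genes whose log2 level over the 6 samples was most like the mean of the 7 tested members, among 14041 candidates with a mean of at least 1 CPM, were Slc36a2, Rgcc, Slc28a2, Spn, Hmgxb4, Carns1, Proca1 and Nrg1. Their likeness, Pearson's r over 6 samples that include both groups, ran from 0.962 to 0.979. This is a description with no p. Spn, the sialomucin CD43 of T cells and other leukocytes, had 14.7, 9.45 and 14.1 CPM in F10-deleted samples 1, 3 and 4 and 9.76, 11.6 and 12.3 CPM in F10-intact samples 1, 3 and 4. Slc36a2, an amino acid transporter, had 4.82, 0.591 and 4.51 CPM in the F10-deleted samples and 0.184, 0.513 and 1.14 CPM in the F10-intact samples. In both genes F10-deleted samples 1 and 4 were the highest, and F10-deleted sample 3 was within or below the range of the F10-intact samples.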

How the data were processed

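Poly-A RNA of 6 tumours was sequenced from directional libraries with single 120-base reads (per the labels' protocols), and the authors deposited 1 table of raw counts per Ensembl gene. Per the submitters' processing notes, STAR 2.7.10a and the build GRCm38 were used, and DESeq2 is named there with no role; the sources used here do not give the counting program or strand setting. Symbols, exons and coordinates came from GENCODE M21 (GRCm38), which matched 21605 of 21718 identifiers, and promoter sequences from RefSeq (GRCm38.p6).

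The test was edgeR 4.0.16 (R 4.3.3; quasi-likelihood, robust dispersion, TMM, filterByExpr at a minimum count of 10), with Benjamini-Hochberg adjustment over all 15963 genes at 0.05. All fold changes put F10-deleted over F10-intact. Alternatives were DESeq2 1.42.0, limma 3.58.1 (voom), RLE, upper quartile and total-count scaling (the last for sums alone), no filter, a filter of 1 CPM in 3 samples, the replicate block, a threshold of 0.1, non-robust dispersion, and leaving out each sample. The tools were run on simulated data with independent, unpaired samples. Because these data may be paired, that run cannot decide between the tools where their calls differ here. Intervals on counts and shares cover counting error only. The labels do not say that samples were separate animals, so p-values cover only sample-to-sample spread, which may be technical. Same-group pairs differed beyond sampling noise (chi-square per degree of freedom at least 22.3).

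Both groups carry the numbers 1, 3 and 4. Across genes, deviations from the group mean correlated between same-numbered samples at 0.35, 0.135 and 0.181 (all over 0.1). The numbers may therefore pair the samples, although the labels name no shared day or litter. The main test leaves this pairing out, and the replicate block is an alternative to it. The SEs, intervals and adjusted p values given above ignore the pairing unless the block is named. With the block, edgeR called 2 genes in place of 7. The members and lists were chosen with earlier results of these data known. The genes named were the 10 members, F10, up to 4 genes of each other list with the smallest p, and the 8 genes most like the members; Klrb1c, Eomes, Hcst, H2-T23 and the 4 granzymes without counts were picked out after their values were seen. The host genotype, shared by both groups, is not reported here.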

Additional observations from a re-analysis of the deposited data

How the results depend on the processing

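The count of genes called over all genes tested was 7. It was 487 with DESeq2, 2 with limma-voom, 2 with the filter of 1 CPM in 3 samples, 3 without robust dispersion, 85 at an adjusted p under 0.1, and 0 to 72 with 1 sample left out (1, 18 and 0 without F10-deleted sample 1, 3 and 4, and 72, 0 and 5 without F10-intact sample 1, 3 and 4). With the replicate block it was 2, and with the block in DESeq2, chosen after seeing the data, 520. Of the members, 0 were called in every edgeR and limma-voom alternative and 1, Gzmb, with DESeq2 (log2 fold change 1.44). With the pairing block, DESeq2 called 0 members and edgeR gave log2 fold changes of 1.82 for Gzma and 1.39 for Gzmb; the block changed no other call of a member.

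The fold changes of Gzma and Gzmb kept their sign in all alternatives, from 1.18 to 2.44 and from 1.17 to 1.71. With 1 sample left out, Prf1 ran from 0.099 to 1.04 and Gzmk from 0.25 to 1.18, with no change of sign. The uncalled values of the other 6 members changed sign. The ranges were -0.044 to 0.46 for Nkg7 (below 0 without F10-deleted sample 1 or 4), -0.38 to 0.82 for Ifng (below 0 without F10-deleted sample 4) and -0.045 to 0.52 for Klrd1 (below 0 without F10-deleted sample 1 or 4 or F10-intact sample 1 or 3). They were -0.69 to 0.35 for Klrk1 (above 0 without F10-deleted sample 3 or F10-intact sample 4), -0.47 to 0.20 for Ncr1 (above 0 in 4 of 6 fits, and 0.015 with upper quartile scaling) and -0.068 to 0.66 for Fasl (below 0 without F10-intact sample 1). The median of the tested members ran from -0.032, without F10-intact sample 1, to 0.52, and that of T cell markers from -0.20 to 0.24, above 0 without F10-deleted sample 3 or F10-intact sample 1 or 3. The cause of these changes was not tested.

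The summed CPM of the 10 members differed by 11.1 CPM, from 6.52 to 19.1 with 1 sample left out and from 5.54 to 11.4 with 1 member left out. The share of Gzma and Gzmb differed by 14.9 percentage points without Gzma and 12.7 without Gzmb. Gzmk, Prf1, Ifng, Ncr1 and Fasl had 2 to 21 counts per sample, and the counting intervals of their ratios all held 1. For Fasl the spread between samples was wider than counting error.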
